A study of Mus musculus with 6 samples.

Results

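The cadherins and non-clustered protocadherins were followed in neural crest cells of the mouse branchial arches. Libraries with floxed Ehmt1 and Ehmt2 were compared with controls that had unfloxed alleles, and all carried Wnt1-cre. Members were taken by symbol: Cdh or Pcdh followed by a number (with or without an x), together with Celsr1, Celsr2, Fat1 to Fat4, Dchs1 and Dchs2. The rule used names only and no measured value. It found 43 of the 21006 gene symbols in the count table, and 41 of the 43 had enough counts to be among the 14555 genes tested. The clustered protocadherins (alpha, beta and gamma) are not members.

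The study profiled polyadenylated RNA by stranded sequencing at E11.5, from branchial arch cells freed with papain and sorted for the red reporter TdTomato. All 6 libraries carried Wnt1-cre and one reporter allele (Rosa26 TdTomato/+). The 3 DKO (double knockout) libraries were Ehmt1f/f and Ehmt2f/f, and the 3 control libraries were Ehmt1+/+ and Ehmt2+/+. Wnt1-cre acts in the neural crest and also in the dorsal neural tube, and each library is labelled a biological replicate without stating whether embryos were pooled. Ehmt1 and Ehmt2 encode GLP and G9a, the paired enzymes that add the first methyl groups to lysine 9 of histone H3, a mark of silenced genes.

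Cadherins are calcium-dependent adhesion proteins whose extracellular repeats bind mostly to the same cadherin on the next cell. Classical cadherins join actin through catenins, and cells that leave an epithelium, as neural crest does, change which classical cadherins they make. Delta protocadherins adhere more weakly and act in cell sorting and migration, while Fat, Dachsous and Celsr proteins are giant cadherins that pass planar polarity between neighbouring cells.

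Total counts lay between 23414466 and 44538260 per library, and members took 0.302% to 0.374% of them. Ehmt2 lay at 119 to 140.4 CPM in DKO against 347 to 359.7 CPM in controls, and Ehmt1 at 133 to 168 CPM against 250.03 to 268 CPM, so neither gene's groups overlapped (edgeR adjusted p = 0.000208 and 0.00476). CPM here are library-scaled counts after TMM scaling, which corrects library totals for differences in composition. Reads outside the deleted exons still count, so these levels do not measure intact transcript. DKO replicate 3 lay nearest to the controls on the first principal component, which held 46.6% of the variance. Arch mesenchyme markers were abundant in all libraries, at a sum of 2765 to 3741 CPM over 16 genes. A bulk library cannot tell fewer cells of a type from less RNA per cell.

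One member, the delta protocadherin Pcdh1, was called different between the groups, and it was higher in DKO. A gene was called at a Benjamini-Hochberg adjusted p below 0.05 in edgeR's quasi-likelihood test over all 14555 genes. Among all tested genes 2.19% were called higher, 0.818% lower and 3.01% in either direction. Among the members 1 of 41 was called higher (2.44%) and 0 lower, which is near that background. At an unadjusted p under 0.05 there were 5 members (12.2%), against 20.9% of all tested genes: Pcdh1, Pcdh17, Cdh2, Cdh6 and Cdh8, the last 4 with estimates below 0. With the DESeq2 Wald test Pcdh1 was again the 1 member called, and 0 were lower, where 7.6% of all tested genes were called. The p-values measure the spread among these 6 samples, whose separate origin the labels give only by the word biological.

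Direction was evenly split over the family. The log2 fold change, DKO over control, was above 0 for 21 members and below 0 for 20, with a median of 0.03 (range -0.76 to 1.78), and the median over all tested genes was -0.01. Every DKO library lay above every control library for 2 members, Pcdh1 and Cdh15 (4.88%), where 14.5% of all tested genes did so. Every DKO library lay below every control library for 1 member, Cdh2 (2.44%), where 12.7% of all tested genes did so.

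**Figure D1:**
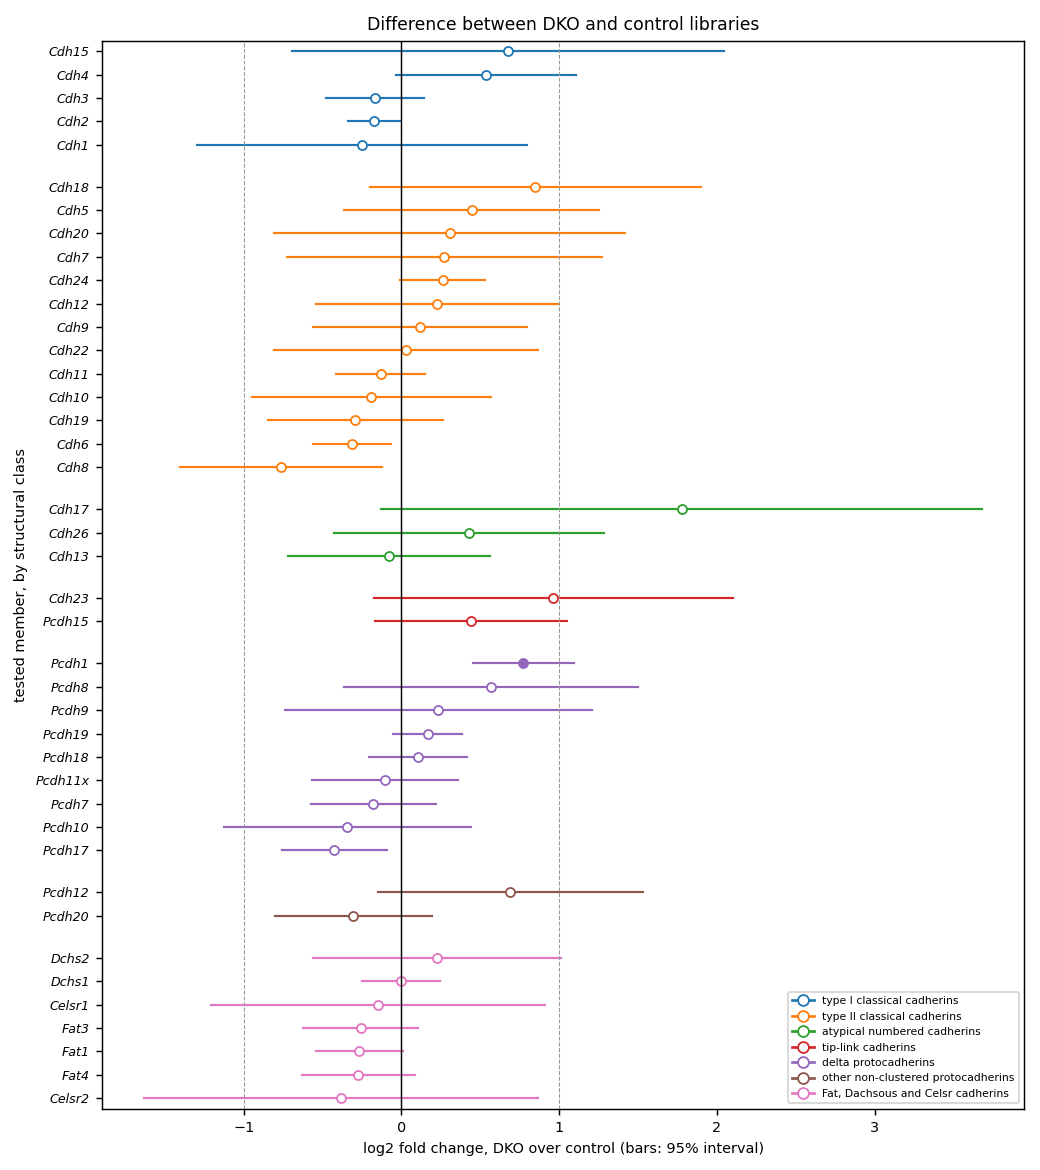
Log2 fold change (DKO over control) of the 41 tested members with 95% intervals, grouped by structural class; the filled point is called and open points are not. Pcdh1 at 0.77 is the single filled point, and the widest interval, that of Cdh17, runs from -0.13 to 3.68.

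A missed call does not show equal levels, and the precision differed widely between members. The median standard error of a member's log2 fold change was 0.28, against 0.12 over all tested genes, and the median level was 8.94 CPM against 32.0 CPM. The 95% interval lay wholly within 1.5-fold of no change for 11 of 41 members (26.8%; 63.5% of all tested genes), and within 2-fold for 21 (51.2%; 81.5% of all). For the other 20 members a change of 2-fold or more in at least 1 direction was not excluded by the interval.

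A mean of at least 100 CPM was reached by 8 members, 12 lay from 10 to 100 CPM, 15 from 1 to 10 CPM and 8 under 1 CPM. The 6 most abundant, Cdh11, Dchs1, Fat1, Fat4, Pcdh18 and Cdh2, held 73.1% of the members' summed CPM. Members differ in transcript length, so levels between genes were compared as CPM per kb of merged exons. On that scale Cdh11 led at 63.5 CPM per kb, followed by Pcdh18 at 59.4, Dchs1 at 42.4, Cdh2 at 29.4 and Fat1 at 28.8 CPM per kb. These 5 held 62.9% of the members' summed CPM per kb, and Cdh11 was 7.50-fold above Cdh3, the tenth (8.46 CPM per kb). The giant cadherins Fat1 and Fat4 thus ranked lower per kb than by CPM, Fat4 at 20.6 CPM per kb.

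**Figure D2:**
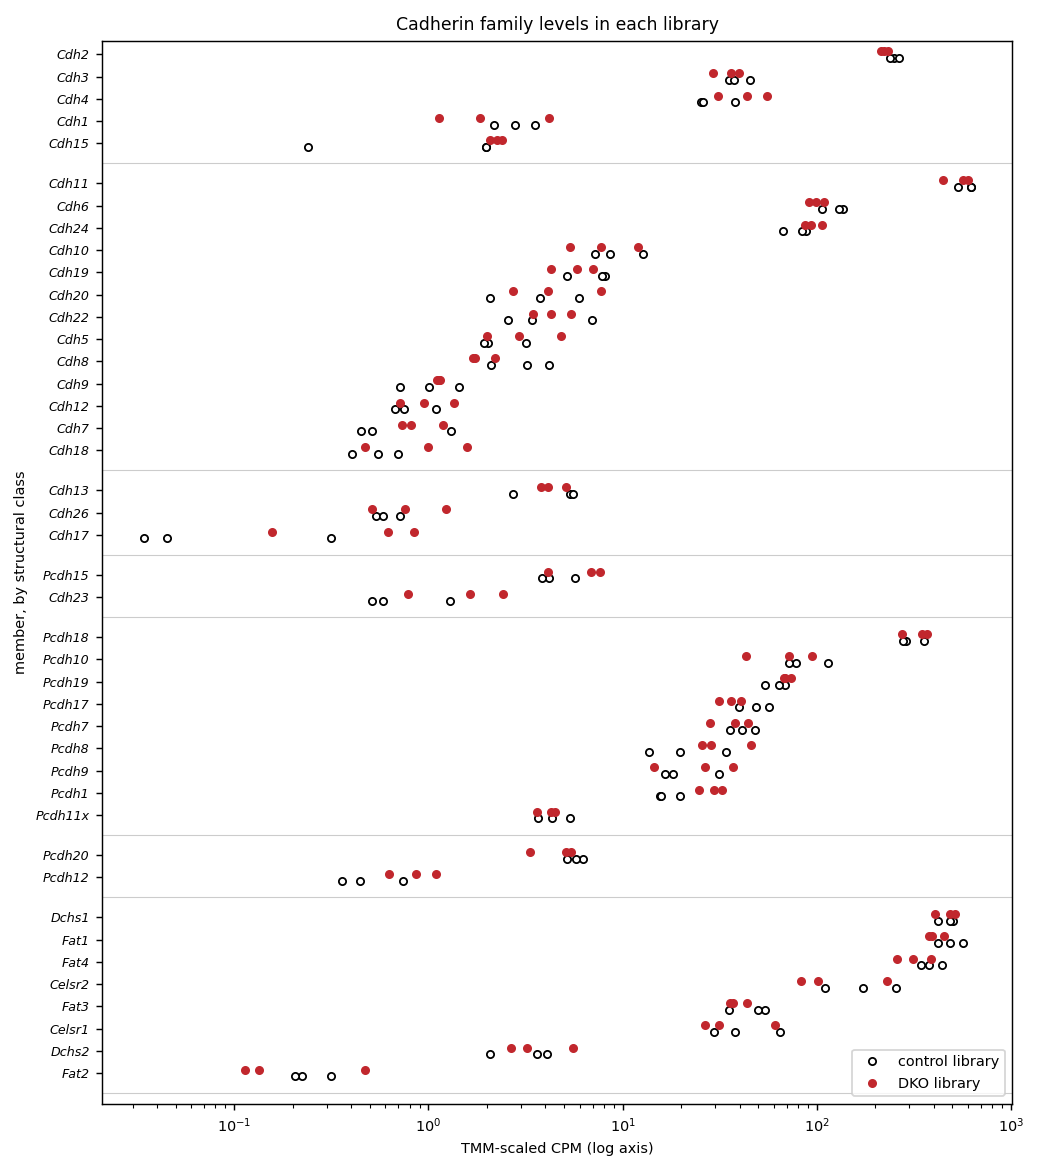
TMM-scaled CPM (log axis) of each member in each of the 6 libraries, grouped by structural class, with control libraries as open and DKO libraries as filled points. The groups overlap for most members, and Pcdh1, Cdh15 and Cdh2 are the tested members whose groups do not; Cdh16, with 0 counts in all libraries, is not drawn.

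Promoter sequence was available for 28 of the 43 members in the RefSeq table for GRCm38.p6, each as the 250 bases before 1 annotated start. That start is the gene's outermost one for 6 members, and for 11 of the other 22 it lies over 1 kb inside the gene, so many windows are not those of the longest transcript. Pcdh1, Cdh1, Cdh2, Cdh11 and Dchs1 are among the 15 members not covered here. The members' windows held a median of 10.5 CG dinucleotides and 58.2% G+C, against 6 and 52.0% over 27025 promoters of the same length. At least 10 CG were found in 15 members, with a median level of 42.2 CPM (range 0.831 to 353 CPM), and fewer in 13 members, with a median of 1.82 CPM (range 0.244 to 450.1 CPM). Of all promoters 38.2% held at least 10 CG. Median log2 fold changes were 0.11 and 0.17 in these sets. The ranges of level overlap widely, and length was not taken into account. Of the windows over 1 kb inside the gene, those of Cdh8, Fat4 and Pcdh9 held at least 10 CG. The rest held fewer, among them that of Fat1, the member at 450.1 CPM. The CG-rich and CG-poor sets thus differ also in where their windows lie. Windows of 3 members that start at the gene's outermost annotated start are shown as examples of a CG-rich and of CG-poor windows, where members run from 0 to 32 CG: Pcdh10 (22 CG, a delta protocadherin at 43.0 to 114 CPM), Cdh15 (5 CG, the cadherin of muscle precursors, at 0.239 to 2.40 CPM) and Pcdh20 (3 CG, at 3.33 to 6.24 CPM). They run 5′ to 3′ on the gene's strand, with each CG in capitals.
Pcdh10, chr3:45378148-45378397, + strand: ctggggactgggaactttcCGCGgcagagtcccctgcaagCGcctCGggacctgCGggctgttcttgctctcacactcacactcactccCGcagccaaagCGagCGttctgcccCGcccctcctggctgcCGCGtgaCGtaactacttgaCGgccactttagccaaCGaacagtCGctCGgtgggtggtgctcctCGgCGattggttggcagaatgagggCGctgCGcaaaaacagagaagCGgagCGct
Cdh15, chr8:122848124-122848373, + strand: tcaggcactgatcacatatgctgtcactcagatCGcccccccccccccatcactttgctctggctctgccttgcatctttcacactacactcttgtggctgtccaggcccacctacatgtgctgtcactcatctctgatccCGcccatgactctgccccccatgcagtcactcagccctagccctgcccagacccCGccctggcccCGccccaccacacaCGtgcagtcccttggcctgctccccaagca
Pcdh20, chr14:88471397-88471646, - strand: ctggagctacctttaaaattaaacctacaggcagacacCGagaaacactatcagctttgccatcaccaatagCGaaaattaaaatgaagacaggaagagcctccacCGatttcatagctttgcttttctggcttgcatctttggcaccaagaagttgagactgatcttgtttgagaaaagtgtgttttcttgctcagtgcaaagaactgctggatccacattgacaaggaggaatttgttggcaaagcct
The E-box letters CAGGTG, which read CACCTG on the other strand, were also searched, since Snail and Zeb repressors bind such sites. They occurred in 4 of 28 members (14.3%; Celsr2, Fat1, Cdh7 and Pcdh15), against 17.1% of all promoters. Cdh1, a textbook target of these repressors, was not among the windows searched. A match is only a run of letters and not a measured binding site.

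Among type I classical cadherins, which bear the strongest junctions, 0 of 5 members were called and the median log2 fold change was -0.17. Cdh2 (N-cadherin, the main classical cadherin of neural and mesenchymal cells, on chromosome 18 from 16588877 to 16809246 in mm10) measured 213, 222 and 234 CPM in DKO replicates 1 to 3 and 250.1, 239.7 and 264 CPM in the controls. After TMM scaling all 3 DKO libraries lay below all 3 controls, by a narrow margin. The log2 fold change was -0.17 (SE 0.07; 95% interval -0.34 to -0.01), and it was not called (edgeR adjusted p = 0.224). Without TMM scaling, by library size only, the log2 fold change was -0.09 (edgeR adjusted p = 0.497).

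Cdh1 (E-cadherin, the epithelial cadherin) stood at 1.13, 1.85 and 4.18 CPM in DKO and 3.53, 2.78 and 2.19 CPM in control libraries. The groups overlapped, with the lowest and the highest value both in DKO, and the log2 fold change of -0.25 (SE 0.45) turned to 0.08 without DKO replicate 1. Epithelial markers, 14 genes all tested and none called, summed to 20.9, 22.4 and 35.4 CPM in DKO and 25.2 to 29.8 CPM in controls. In DKO 11 of the 14 peaked in replicate 3, as Cdh1 did, where 5638 of all 14555 tested genes did so. In controls Cdh1 was highest in replicate 1, as 7 of the 14 markers were, where 5044 of all 14555 tested genes were. The marker sum was 28.8 CPM in control replicate 1 and 29.8 CPM, its highest, in control replicate 2. The part of these markers in the level of Cdh1 was not tested. Its neighbour Cdh3 (P-cadherin), 46.4 kb away on chromosome 8, was far more abundant, at 29.2 to 39.5 CPM in DKO and 35.3 to 45.3 CPM in control libraries, and did not pass the test (log2 fold change -0.17).

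Cdh4 (R-cadherin, a close relative of N-cadherin) measured 43.7, 55.3 and 30.9 CPM in DKO and 38.1, 25.3 and 25.9 CPM in controls. DKO replicate 3 lay below control replicate 1, so the groups overlapped, and Cdh4 was not called (log2 fold change 0.54, SE 0.24; edgeR adjusted p = 0.260). Cdh15 (M-cadherin, made by muscle precursors) measured 2.40, 2.26 and 2.08 CPM in DKO and 1.99, 1.97 and 0.239 CPM in controls. DKO lay above control throughout, but control replicate 3 lay far below the other controls, which were close to the DKO values. The log2 fold change was 0.67 (SE 0.59; adjusted p = 0.553). Skeletal muscle markers, of which 8 of 10 were tested and 0 called, summed to 74.2 to 102 CPM in DKO and 75.6 to 90.9 CPM in controls, with Musk and Myf6 listed at 0 in 2 libraries each; their part was not tested.

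Type II classical cadherins, which often mark mesenchymal and neural subtypes, had 0 of 13 members called and a median log2 fold change of 0.12, with 8 above 0 and 5 below. Cdh11 (OB-cadherin, a mesenchymal cadherin made by cranial crest) measured 568, 603 and 448 CPM in DKO and 622, 620.1 and 532 CPM in controls. Replicate 3 was lowest in each group and the groups overlapped. The log2 fold change of -0.13 (SE 0.12) had a 95% interval from -0.41 to 0.15, so a fall of more than 1.5-fold lay outside it. Of the 16 arch mesenchyme markers, none called, 11 had estimates below 0 and 5 above (median -0.18). They summed to 2765 to 3741 CPM in DKO and 3101 to 3633 CPM in controls, which overlap. Their part in Cdh11 was not tested.

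Cdh6 (K-cadherin, present in crest as it leaves the neural tube) measured 91.6, 109 and 99.5 CPM in DKO and 136, 131 and 107 CPM in controls. Control replicate 3 fell within the DKO range and the other controls lay above it. The log2 fold change was -0.31 (SE 0.11; edgeR adjusted p = 0.157), not called. Cdh8, a cadherin of neural circuits, had the most negative estimate of the family at -0.76 (SE 0.28; adjusted p = 0.175), from 1.70, 1.74 and 2.19 CPM in DKO and 4.16, 2.11 and 3.21 CPM in controls. DKO replicate 3 lay above control replicate 2. Neuronal markers were lower in estimate too: 11 of 12 were below 0 (median -0.39), 1 was called lower (Pou4f1, adjusted p = 0.0306), and the sums were 949.9 to 1051 CPM in DKO and 1034 to 1261 CPM in controls, which overlap. Their part in Cdh8 was not tested. Cdh24 came next after Cdh6 among type II members by CPM, but per kb it lay above Cdh6 (25.1 against 12.4 CPM per kb). Cdh24 was not called (86.7 to 106 CPM in DKO, 67.0 to 88.2 CPM in controls; log2 fold change 0.26, SE 0.12).

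Cdh19, a cadherin of Schwann cell precursors, measured 4.28, 5.85 and 7.06 CPM in DKO and 8.10, 7.81 and 5.16 CPM in controls, with overlapping groups (log2 fold change -0.29, SE 0.24). The 8 glial markers, none called, summed to 266.6 to 274.4 CPM in DKO and 275.1 to 303 CPM in controls, which lay apart by a narrow margin. Of these markers 3 had estimates above 0 and 5 below. Their part in Cdh19 was not tested. Cdh5 (VE-cadherin, the endothelial cadherin) measured 2.91, 2.01 and 4.81 CPM in DKO and 2.04, 1.93 and 3.18 CPM in controls (log2 fold change 0.45, SE 0.35). The summed endothelial markers were higher in every DKO library, at 39.4 to 50.5 CPM against 25.9 to 34.1 CPM, with all 9 tested genes above 0 in log2 fold change and 1, Tie1, called (3.04). Of the 10 markers only Sox17 was at 0 in a library. Their part in Cdh5 and in Pcdh12 was not tested.

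The other type II members were scarce: Cdh10, Cdh20, Cdh22, Cdh9, Cdh12, Cdh7 and Cdh18 each had group means between 0.548 and 9.51 CPM. Their log2 fold changes ran from -0.19 (Cdh10) to 0.85 (Cdh18, SE 0.46), and none passed the test.

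Of the atypical numbered cadherins and the tip-link cadherins of the inner ear, 0 of the 5 tested were called. Cdh17 (LI-cadherin, an intestinal cadherin) had the largest estimate of the family, 1.78 (SE 0.82; edgeR adjusted p = 0.265), from 0.620, 0.845 and 0.156 CPM in DKO and 0.313, 0.0449 and 0.0342 CPM in controls. The groups overlapped, and the counts behind it were 67 in all DKO libraries and 16 in all controls. Cdh23, which with Pcdh15 forms the tip link of hair cells, measured 1.64, 2.42 and 0.782 CPM in DKO and 1.30, 0.583 and 0.513 CPM in controls (log2 fold change 0.96, SE 0.50; adjusted p = 0.306). Pcdh15 differed by 0.44 (SE 0.26), also with overlap. Cdh13 (T-cadherin, which is anchored by a lipid and has no cytoplasmic tail) lay at 2.74 to 5.57 CPM over all 6 libraries (log2 fold change -0.08), and Cdh26 at 0.514 to 1.23 CPM (0.43).

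Cdh16 (the kidney cadherin) had 0 counts in all 6 libraries, which allows at most 0.0671 to 0.135 CPM by library, the level of 3 counts, counting error only. Fat2 had 5, 5 and 21 counts in DKO and 10, 7 and 6 counts in control libraries. Both stayed below the minimum for testing.

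Delta protocadherins held the single called member, and 5 of 9 tested members were above 0 with a median of 0.11. Pcdh1, a delta-1 protocadherin known from airway epithelium (chromosome 18, 38185914 to 38212048 in mm10), measured 29.7, 24.7 and 32.5 CPM in DKO and 15.5, 19.7 and 15.7 CPM in controls. All 3 DKO libraries lay above all 3 controls, the closest being DKO replicate 2 and control replicate 2. The means were 28.9 ± 3.96 and 17.0 ± 2.33 CPM (SD, n = 3 each), a 1.71-fold rise (log2 fold change 0.77, SE 0.14, 95% interval 0.45 to 1.09; edgeR adjusted p = 0.0270). Leaving out DKO replicate 1 gave a log2 fold change of 0.75 and ended the call (edgeR adjusted p = 0.112). So did leaving out control replicate 1 (0.72; edgeR adjusted p = 0.0933) and control replicate 3 (0.72; edgeR adjusted p = 0.0992). The summed endothelial markers, given with Cdh5, were also higher in every DKO library, and their part in Pcdh1 was not tested.

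The genes around Pcdh1 did not share a single direction. Within 500 kb on either side 33 other genes were tested, 3 called higher and 6 lower, with a median log2 fold change of 0.07. Of all tested genes 3.01% were called in either direction. The nearest called genes were Arap3, which rose by 1.22 (adjusted p = 0.00784) at 186 kb, and Rell2, which rose by 1.10 (adjusted p = 0.0445) at 227 kb. Between Pcdh1 and the gamma protocadherin cluster, 344 kb away, Diaph1 (0.05), Hdac3 (0.09) and Fchsd1 (0.48, adjusted p = 0.124) were not called; Fchsd1 and Rell2 overlap in position, so their reads may be shared. On the other side Dele1 (0.17), Rnf14 (0.03), Gnpda1 (0.07), Ndfip1 (-0.10), Spry4 (0.68, edgeR adjusted p = 0.226) and Arhgap26 (0.07) were not called. Of the tested genes outside the gamma cluster only Ndfip1 had a negative estimate. Every DKO library lay above every control library for Hdac3, Rell2, Fchsd1, Arap3 and Dele1, as for 14.5% of all tested genes. The groups of the other neighbours outside the cluster overlapped. All 6 genes called lower belong to the gamma cluster: Pcdhga1, Pcdhga2, Pcdhga3, Pcdhga5, Pcdhga7 and Pcdhgb2. One of its genes, Pcdhga11, was higher (0.93). Gamma cluster genes share their 3′ exons, so counting could split their reads.

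**Figure D3:**
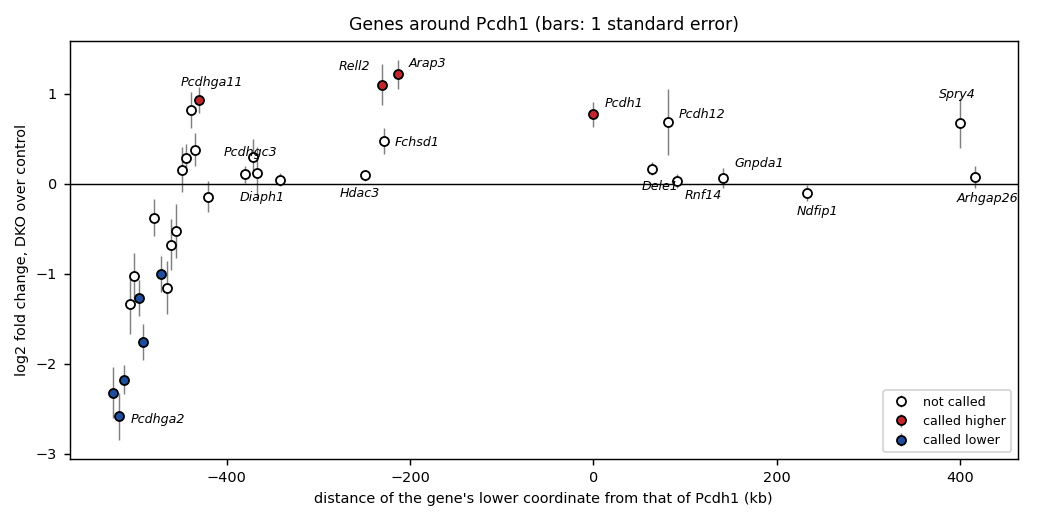
Log2 fold change (DKO over control, bars 1 standard error) of the tested genes within 500 kb of Pcdh1, against the distance in kb between the lower coordinates of the genes; red points are called higher, blue lower and open not called. Pcdh1 is higher at 0.77, Arap3 at 1.22 and Rell2 at 1.10, while the genes of the gamma cluster at the left run from -2.58 to 0.93.

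Pcdh12, a protocadherin of endothelium 55.0 kb from Pcdh1, had an estimate of 0.69 (SE 0.37; adjusted p = 0.320) from 0.862, 1.10 and 0.626 CPM in DKO and 0.738, 0.359 and 0.444 CPM in controls. DKO replicate 3 lay below control replicate 1, and the gene overlaps Rnf14 in position. The endothelial marker sums are those given with Cdh5.

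The rest of the delta protocadherins were measured with mixed precision. Pcdh18, the most abundant, measured 348, 370.1 and 273 CPM in DKO and 355, 289 and 277 CPM in controls (log2 fold change 0.11, SE 0.14). Pcdh17 measured 40.5, 36.4 and 31.3 CPM in DKO and 56.8, 48.6 and 39.8 CPM in controls. DKO replicate 1 lay just above control replicate 3, and Pcdh17 was not called (log2 fold change -0.43, SE 0.15; edgeR adjusted p = 0.155). Pcdh8 (also called arcadlin) measured 28.5, 25.5 and 45.9 CPM in DKO and 19.7, 13.6 and 33.9 CPM in controls, high in replicate 3 of both groups (log2 fold change 0.57, SE 0.38). Pcdh19 (0.17), Pcdh9 (0.23), Pcdh11x (-0.11), Pcdh7 (-0.18) and Pcdh10 (-0.34) did not pass the test, nor did Pcdh20 (-0.31, SE 0.22) outside the delta class.

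Of the Fat, Dachsous and Celsr cadherins, 0 of 7 tested were called, and 6 had estimates below 0 with a median of -0.26. Of all 14555 tested genes 7459 had estimates below 0. By library the class summed to 1355, 1510.1 and 1386 CPM in DKO and 1777, 1524 and 1562 CPM in control, which came close but did not overlap. No tested member of the class had groups that lay apart. Sums of type I cadherins also lay apart (296.6 to 310.6 CPM in DKO, 314.9 to 329.4 CPM in controls). So did those of catenins and junction adaptors (2663 to 2787 CPM in DKO, 2804 to 3067 CPM in controls). Sums of other cadherin-superfamily genes, which are not members, lay apart the other way (415.9 to 455.1 CPM in DKO, 361.6 to 412.5 CPM in controls). TMM factors ran from 1.017 to 1.033 in DKO and from 0.952 to 1.004 in controls. The sums lower in DKO lay apart by narrow margins that depended on this scaling. How often sums of other gene sets lie apart was not tested. Fat4, the receptor of the Fat and Dachsous pair, measured 313, 389 and 258 CPM in DKO and 439.9, 377 and 343 CPM in controls (log2 fold change -0.27, SE 0.16). Its ligand Dchs1 measured 485, 512 and 407 CPM in DKO and 501, 483 and 421 CPM in controls, with a log2 fold change of 0.00 (95% interval -0.25 to 0.25). Its sign, at such a size, reversed in several alternatives.

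Fat1, a giant cadherin that guides cell orientation and actin at the leading edge, measured 391, 454 and 379.97 CPM in DKO and 567, 486 and 423 CPM in controls. DKO replicate 2 lay above control replicate 3, and Fat1 was not called (log2 fold change -0.27, SE 0.12; edgeR adjusted p = 0.247). Fat3 had an estimate of -0.26 (SE 0.16). Celsr2 and Celsr1, core planar polarity cadherins, were uneven between libraries. Celsr2 measured 102, 82.9 and 229.9 CPM in DKO and 174, 109.96 and 257 CPM in controls, and its log2 fold change of -0.38 had an interval from -1.63 to 0.86. Celsr1 measured 26.5, 31.3 and 61.0 CPM in DKO and 37.8, 29.5 and 64.5 CPM in controls (-0.15, SE 0.43). Dchs2 lay at 2.06 to 5.57 CPM over all libraries (0.22).

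The library with the highest level differed between members. In both groups replicate 3 was the highest for 9 of 41 members (22.0%), near the 17.8% of all tested genes: Cdh2, Cdh20, Cdh22, Cdh5, Cdh7, Celsr1, Celsr2, Dchs2 and Pcdh8. In the same libraries the neural tube markers peaked: they summed to 114, 81.9 and 268 CPM in DKO and 152, 98.5 and 221 CPM in controls, and all 8 were highest in replicate 3 of each group. Their part in the members' levels was not tested. A larger share, 21 of 41 members (51.2%; 20.2% of all tested genes) were highest in DKO replicate 2 and control replicate 1, among them Cdh11, Dchs1, Fat1, Fat4 and Pcdh18.

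**Figure D4:**
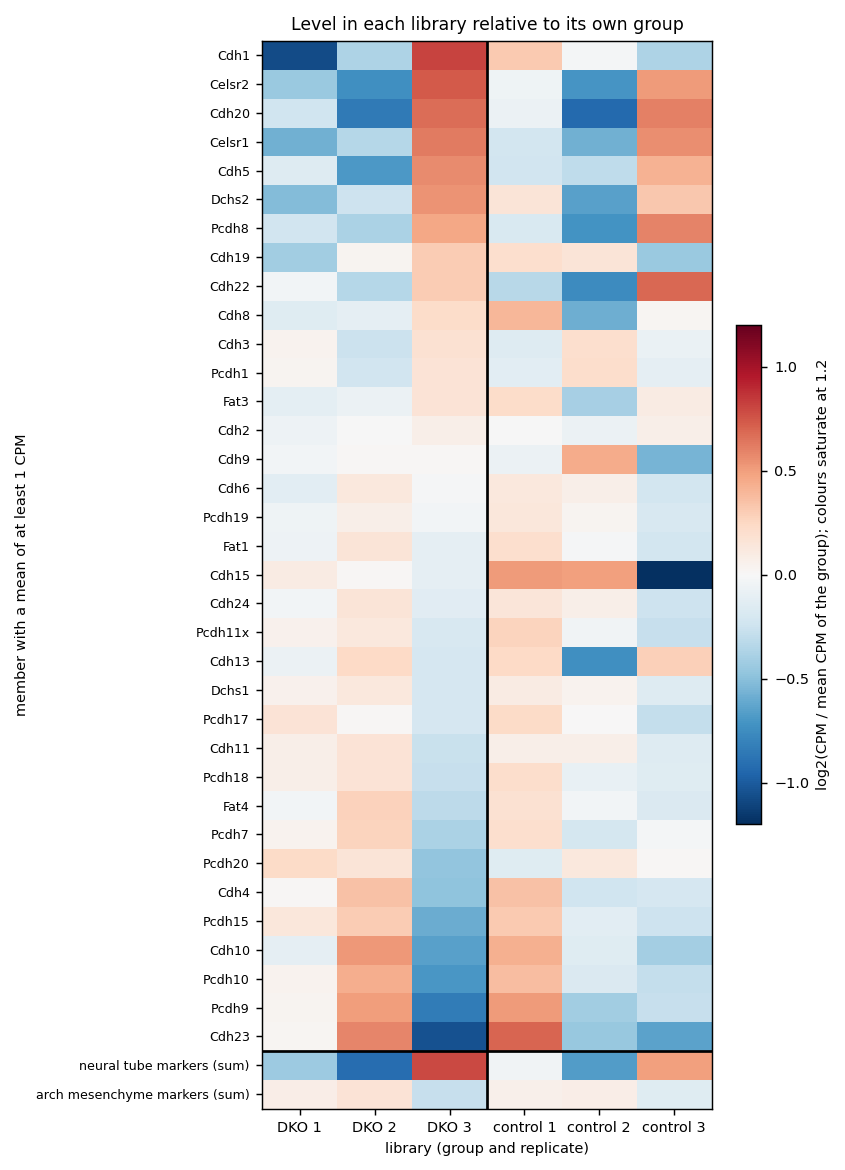
Level of each member with a mean of at least 1 CPM in each library, as log2 of its CPM over the mean of its own group, with the sums of neural tube and arch mesenchyme markers below. Celsr2, Cdh20, Celsr1 and Pcdh8 near the top are high in replicate 3 of both groups, as the neural tube sum is, Cdh1 is high in DKO replicate 3 but not in control replicate 3, and Cdh23 and Pcdh9 at the bottom are low in both.

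Of 74 tested partner genes 4 were called (5.41%, where 3.01% of all tested genes were). Catenins and junction adaptors, which link cadherins to actin, had 0 of 15 tested genes called (median -0.09); the most abundant were Ctnnb1 (β-catenin; means 1129.8 and 1250.5 CPM in DKO and control, log2 fold change -0.15) and Ctnna1 (α-catenin; -0.16). Desmosome genes had 0 of 6 called (Dsg2 0.15, Dsp -0.10). Transcription factors that repress cadherins had 0 of 9 called, with a median of -0.22 and 7 below 0; the most abundant were Tcf3 (-0.09) and Twist1 (0.01). Snai1, a repressor of Cdh1, was not called but lay lower in every DKO library: 108, 91.7 and 80.2 CPM against 136, 165 and 125 CPM in controls (log2 fold change -0.61, SE 0.13; edgeR adjusted p = 0.0566), a value singled out after it was seen.

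Of 20 planar polarity partners, 1 was called: Dvl1, a Dishevelled signal protein, rose from 58.8, 59.9 and 51.9 CPM in controls to 74.8, 84.7 and 82.5 CPM in DKO (log2 fold change 0.50, SE 0.09; adjusted p = 0.0213). Of 16 sheddases and processing proteases, 1 fell: Adam10, the protease that sheds N-cadherin and E-cadherin, from 184, 177 and 184 CPM in controls to 134, 136 and 151 CPM in DKO (-0.37, SE 0.07; adjusted p = 0.0326). Of 8 tested other cadherin-superfamily genes 2 rose. Celsr3, the third Celsr, stood at 93.5, 102 and 115 CPM in DKO and 63.8, 45.1 and 62.0 CPM in controls (0.86, SE 0.14; adjusted p = 0.0188). Cdhr2 rose by 2.45 (SE 0.44; adjusted p = 0.0259), at 0.335 to 0.458 CPM in DKO and 0.0449 to 0.0895 CPM in controls. Both levels are low, and that of the controls is only a few reads per library. All 4 calls were lost in at least 2 of the 6 fits that left out 1 library.

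Members that lie within 1 Mb of each other were not alike throughout. Cdh3 and Cdh1 (46.4 kb apart) had log2 fold changes of -0.17 and -0.25, and Pcdh1 and Pcdh12 (55.0 kb) 0.77 and 0.69. Cdh5 and Cdh16, which had no counts, lie 457 kb apart. For Cdh7 and Cdh19 (743 kb) the values were 0.27 and -0.29, for Cdh12 and Cdh18 (950.5 kb) 0.23 and 0.85, and for Cdh26 and Cdh4 (955 kb) 0.43 and 0.54. Except for Pcdh1, none of these passed the test.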

How the data were processed

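RNA was measured in 3 DKO and 3 control libraries. Values are raw whole-number counts per gene as deposited; the build was mm10 and the tools STAR 2.7.10a, Picard and Trim Galore, per the submitters' processing notes. Counting program, strand setting and annotation: not given in the sources used here. The counts were filtered (filterByExpr, minimum count 10, total 15), scaled by TMM and tested with edgeR 4.0.16 (R 4.3.3; robust quasi-likelihood, group as the only term), with Benjamini-Hochberg adjustment over 14555 genes and a call at 0.05. Fold changes are log2, DKO over control; standard errors are the estimate over the root of F. Exon lengths came from GENCODE M21 (GRCm38), and promoters from RefSeq GRCm38.p6. On simulated data for this comparison over 14459 genes, 77 of 100 genes changed 2-fold and 95 of 100 changed 4-fold were called, and 14 of 186 calls were false. The changed genes were drawn from all tested genes with a mean of at least 1 CPM. Tested members had a median level of 8.94 CPM against 32.0 CPM over all tested genes, so these shares do not give the recovery for members. Members named with values are those called, the 8 most abundant, the smallest p per class, lineage cadherins and those with separated groups; others were named after their values were seen. Members and lists were chosen with earlier results of these data known. Alternatives were a replicate block, RLE scaling, library size only, no filter, at least 1 CPM in 3 libraries, DESeq2 1.42.0, limma-voom (limma 3.58.1) and leaving out each library.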

Additional observations from a re-analysis of the deposited data

How the results depend on the processing

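Members called higher numbered 1 with RLE, library size only, no filter, at least 1 CPM in 3 libraries, DESeq2 and limma-voom, and 0 to 1 when 1 library was left out (0 without DKO replicate 1, control replicate 1 or control replicate 3). Members called lower numbered 0 in all of these. Replicate numbers did not pair the libraries: the correlations of same-numbered deviations were 0.05, -0.03 and 0.36, and DKO replicate 2 correlated best with control replicate 1 (0.45). With the number as a replicate block 2 members were higher (Pcdh1, Pcdh8) and 1 lower (Pcdh17). Over all genes 438 calls became 1106 with DESeq2, where Cdhr2 was no longer called (adjusted p = 0.0650), and 131 to 1106 when 1 library was left out, the low end without DKO replicate 1 and the high end without DKO replicate 3. Calls among partners went from 4 to between 0 and 8. With library size only, the split of 319 higher and 119 lower became 416 and 80, the median of all genes moved from -0.01 to 0.07, and Adam10 was no longer called (adjusted p = 0.0740). The log2 fold change of Dchs1 reversed to 0.076 with library size only and 0.014 with at least 1 CPM in 3 libraries, and ran from -0.074 to 0.089 when 1 library was left out. That of Cdh1 ran from -0.93 (without DKO replicate 3) to 0.083 (without DKO replicate 1). For these reversals the cause was not tested. Of 257 alternative values for single genes, 229 kept direction and side of the threshold, 22 lost the call and 6 reversed. One sign held for 29 of 41 members in the reported fit and in each of the 13 alternatives that tested them. With 3 libraries a group, members of low count were the least precise.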
